A study of Rattus norvegicus with 5 samples.

Results

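Cdkn1a, Mdm2, Bax and Ccng1 are 4 genes that the transcription factor p53 switches on, and they were followed here in cultured rat heart cells after an adenovirus. They were chosen by name as known p53 targets and read from the rows ENSRNOG00000000521 (Cdkn1a), ENSRNOG00000006304 (Mdm2), ENSRNOG00000020876 (Bax) and ENSRNOG00000003256 (Ccng1), 4 of the 15077 features listed in all 5 tables. Each was compared between cells with and without a transcript of the virus, between viruses and between days. The pairing of these IDs with symbols came with the choice of genes, since the tables list IDs without names.

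The cells were wild-type primary ventricular cells of Sprague Dawley rats at postnatal day 2, with myocytes and non-myocytes mixed. All 5 cultures carried an adenovirus, so there is no culture without virus. One virus encodes GFP and the other TBX18, a transcription factor studied for turning ventricular myocytes into pacemaker cells, and the cultures were taken at day 3 or day 14. Another TBX18 culture received A83-01, an inhibitor of TGF-beta receptors, at 0.2 µM. Its title and description say day 14 and its treatment label says 3 days, so the length of exposure to A83-01 is uncertain. Each group had 1 library, from primary cultures whose number of animals is not given in the sources used here. No p-value is therefore given, and all intervals are 95% intervals that cover counting error only, not differences between cultures or cells.

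In a cell without damage, p53 is kept low by the ubiquitin ligase Mdm2. DNA breaks and other stresses free p53, which then switches on genes that stop the cell cycle or start cell death. Cdkn1a encodes p21, an inhibitor of cyclin-dependent kinases that stops the cycle. Mdm2 is itself a p53 target and closes a feedback loop. Bax encodes a protein that opens the outer membrane of mitochondria in apoptosis. Ccng1 encodes cyclin G1, a target that also acts on the Mdm2 and p53 loop. All of these genes also respond to other signals. Cardiac myocytes leave the cell cycle soon after birth, and Cdkn1a is among the inhibitors they hold, so a level of Cdkn1a is no measure of p53 alone.

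p53 binds DNA as a tetramer, at half-sites of 10 bases that lie end to end. The 250 bases before the start were read for the 3 genes with an entry (Cdkn1a, Mdm2, Ccng1) from RefSeq on GRCr8, a build other than the Rnor_6.0 named for the counts, and searched for the p53 half-site consensus on both strands. The windows of Cdkn1a (chr20:7150682-7150931, plus strand) and Ccng1 (chr10:25684877-25685126, minus strand) each held 2 half-sites end to end with 1 of the 20 letters off. They are shown because such a pair is rare. The tolerance of at most 1 letter off was chosen after these windows had been read. The C and G that the consensus fixes in each half-site had to be kept. Such a pair was found in 15 of 33469 windows (0.0448%), and a perfect half-site in 2221 (6.64%). In Cdkn1a the pair lay 201 to 182 bases before the start, and in Ccng1 it lay 242 to 223 bases before it. The window of Mdm2 (chr7:55200792-55201041, minus strand) held neither. Mdm2 is known for a p53-responsive promoter inside its first intron, outside this window. A match describes letters and does not show binding. Capitals mark the pair of half-sites, 5′ to 3′ on the gene's strand.
Cdkn1a: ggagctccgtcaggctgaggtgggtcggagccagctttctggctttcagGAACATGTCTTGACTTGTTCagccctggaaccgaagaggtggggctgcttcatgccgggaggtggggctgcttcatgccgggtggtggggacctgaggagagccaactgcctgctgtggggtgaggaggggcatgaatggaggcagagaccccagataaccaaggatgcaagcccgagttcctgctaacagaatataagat
Ccng1: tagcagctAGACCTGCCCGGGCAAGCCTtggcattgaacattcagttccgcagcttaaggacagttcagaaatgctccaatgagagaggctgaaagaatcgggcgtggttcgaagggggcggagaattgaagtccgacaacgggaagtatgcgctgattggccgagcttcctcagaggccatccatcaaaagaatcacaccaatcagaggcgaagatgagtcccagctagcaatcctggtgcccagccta

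Levels are given as CPM, the UMIs of a gene scaled to 1000000 UMIs in all, and each UMI stands for 1 RNA molecule that was caught. With GFP and TBX18, 7647 and 6117 cells were kept at day 3 and 6064 and 7896 at day 14, and the library with A83-01 kept 7163. Whole libraries held from 104781421 to 202024200 UMIs, and their median depth per barcode lay between 15610 and 28566 UMIs, deeper at day 3. Pairs of libraries shared 7 to 20 cell barcodes. Because IDs carry no names, markers of myocytes, fibroblasts or other cells could not be read, and neither could a wider list of p53 targets. Cells were instead clustered without the virus features and the 4 genes, and 28 clusters were joined into 2 compartments. Compartment 1 is the one in which EGFP was more frequent in the GFP library at day 3. It held 4516 of 7647 and 3143 of 6117 cells at day 3, and 2021 of 6064, 1281 of 7896 and 2454 of 7163 cells at day 14. The label of the cells was thus not checked against markers, and the compartments are left unnamed.

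Virus transcripts matched the labels. EGFP in compartment 1 stood at 95.6 CPM at day 3 and 163 CPM at day 14 in the GFP libraries, where ZsGFP and hTBX18 had 0 UMIs. In the TBX18 libraries hTBX18 stood at 23.6 CPM in compartment 1 at day 3, at 8.80 CPM at day 14 and at 7.29 CPM with A83-01, while EGFP had at most 1 UMI in any compartment. ZsGFP was found in compartment 1 of these libraries too, at 57.9, 7.99 and 6.32 CPM in the same order. A virus-positive cell of a TBX18 library, as defined next, therefore need not hold an hTBX18 UMI. A cell was called virus-positive here with at least 1 UMI of EGFP, ZsGFP or hTBX18. By that rule, 2439 of 4516 cells of compartment 1 were positive for GFP at day 3, and 1402 of 3143 for TBX18 at day 3. At day 14 the positive cells of compartment 1 were 931 of 2021 for GFP, 197 of 1281 for TBX18 and 334 of 2454 with A83-01. In compartment 2 they numbered 229, 152, 416, 120 and 105 in the same order of libraries. A cell without a virus UMI may still hold virus, and free RNA may give a virus UMI to a cell without virus, since cells sure to be free of virus could not be picked out.

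Cdkn1a differed more between libraries in compartment 1 than in compartment 2. In compartment 1 it stood at 49.5 CPM (48.2 to 50.9) with GFP at day 3, 97.4 CPM (95.4 to 99.5) with TBX18 at day 3, 172 CPM (167 to 176) with GFP at day 14, 230.0 CPM (224 to 237) with TBX18 at day 14 and 98.6 CPM (95.8 to 101) with TBX18 and A83-01. No 2 of these intervals overlapped except those of TBX18 at day 3 and of TBX18 with A83-01. In compartment 2 it stood at 56.1, 53.2, 82.4, 92.6 and 71.8 CPM in the same order. The level in compartment 1 was below that in compartment 2 with GFP at day 3 (log2 ratio -0.18) and above it in the other 4 libraries (log2 ratios 0.87, 1.06, 1.31 and 0.46).

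Mdm2, the ligase that holds p53 low, differed little between compartments in 4 libraries (log2 ratios -0.28 to 0.13), and its day 14 levels without A83-01 were above those of day 3. In compartment 1 it stood at 32.1 and 27.3 CPM at day 3 with GFP and TBX18, at 53.2 and 56.6 CPM at day 14, and at 25.7 CPM with A83-01. In compartment 2 the values were 29.2, 33.1, 63.0, 61.6 and 47.0 CPM. The library with A83-01 had the widest gap between compartments, a log2 ratio of -0.87 (-0.96 to -0.78) for compartment 1 over compartment 2.

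Bax, the mitochondrial pore protein, was higher in compartment 2 in all 5 libraries, by 2.34-fold to 4.98-fold. Its levels there were 378 and 395 CPM at day 3, 177 and 173 CPM at day 14 and 253 CPM with A83-01. In compartment 1 they were 99.5, 106, 71.3, 73.8 and 50.8 CPM. Ccng1 was higher in compartment 1 in all 5 libraries, by 2.42-fold to 3.67-fold. Its levels in compartment 1 were 416, 364, 716, 801 and 550.3 CPM, and in compartment 2 they were 128, 150.1, 219, 218 and 201 CPM. The 4 targets therefore did not share 1 order of compartments or libraries. Each compartment mixes clusters, and the part of its make-up in these gaps was not tested.

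**Figure D1:**
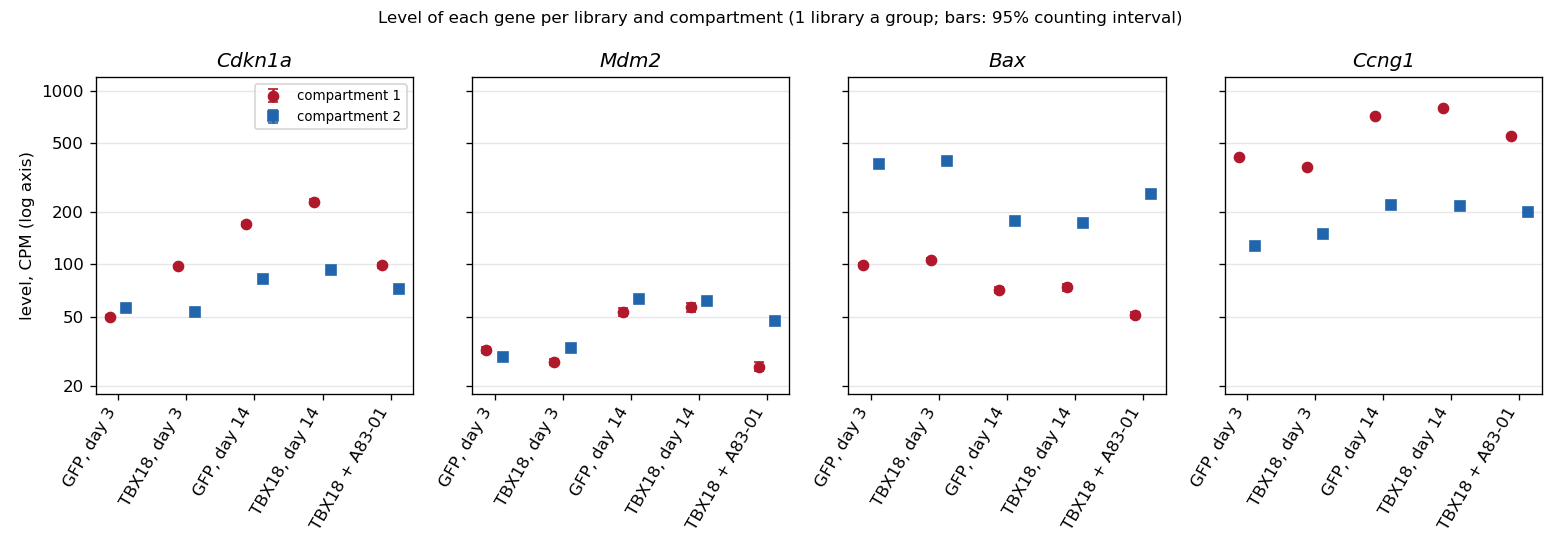
Level of each gene in CPM (log axis) in the 5 libraries, circles for compartment 1 and squares for compartment 2, with 95% counting intervals. Cdkn1a in compartment 1 runs from 49.5 to 230.0 CPM, Bax is higher in compartment 2 and Ccng1 in compartment 1 in every library.

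Over the 20 combinations of library, compartment and virus status, Bax and Ccng1 had a Pearson r of -0.92 on the log2(CPM + 1) scale. Cdkn1a had r of 0.65 with Ccng1, 0.58 with Mdm2 and -0.45 with Bax, while Mdm2 had r of 0.13 with Bax and 0.06 with Ccng1. The 20 points come from 5 libraries and share depth and cells' origin, so these values describe the points only. Among 5005 other genes, the pattern of Cdkn1a was most like those of ENSRNOG00000016552 (r of 0.88) and ENSRNOG00000009071 (r of 0.87), which have no name here.

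The main question was whether cells in which the virus was detected held more of the 4 transcripts than cells of the same library and compartment in which it was not. Cdkn1a was higher in the virus-positive cells in 10 of 10 library and compartment combinations. Log2 ratios ran from 0.03 to 1.18, and 9 of the 10 intervals lay above 0. Ccng1 was higher in 9 of 10 combinations, and Mdm2 and Bax each in 8 of 10. Of all genes, 49.7% to 74.9% were higher in positive cells, depending on the combination. Virus-positive cells were deeper in all 10 combinations, for example 24788 against 19866 median UMIs in compartment 1 with GFP at day 3, so every ratio was also taken with equal numbers of cells within 10 bands of depth. At matched depth the counts were 9 of 10 for Cdkn1a and Ccng1, 6 for Mdm2 and 7 for Bax, and the share of all genes was not taken there. Compartments were kept apart because the virus was unequally spread over them. Over all cells of a library, Bax was lower in virus-positive cells in all 5 libraries (log2 ratios -1.001 to -0.49), the reverse of most of its ratios within compartments.

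Cdkn1a in compartment 1 with GFP at day 3 stood at 57.4 CPM in 2439 positive cells and at 37.7 CPM in 2077 negative cells, a log2 ratio of 0.61 (0.52 to 0.70). In compartment 2 it stood at 89.9 CPM in 229 positive and 52.5 CPM in 2902 negative cells, a log2 ratio of 0.78 (0.65 to 0.89). At matched depth the ratios were 0.44 and 0.47. Genes higher by over 1.25-fold made up 2.16% of all genes in compartment 1, where 1 of the 4 targets passed, and 4.47% in compartment 2, where Cdkn1a, Mdm2 and Ccng1 passed. Mdm2 in compartment 2 stood at 42.4 against 27.9 CPM, a log2 ratio of 0.61 (0.43 to 0.78), and Ccng1 at 183 against 122 CPM, a log2 ratio of 0.58 (0.50 to 0.66). At matched depth Mdm2 had 0.45 there, and Ccng1 had 0.27 (0.15 to 0.38), under the fold. Bax differed little, with log2 ratios of 0.14 and 0.11. All 4 targets were thus on the higher side in both compartments, as were 70.9% and 59.4% of all genes.

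With TBX18 at day 3 the compartments differed. In compartment 2, Cdkn1a stood at 90.1 CPM in 152 positive cells and 50.6 CPM in 2822 negative cells, a log2 ratio of 0.83 (0.70 to 0.97), and 0.68 at matched depth. Mdm2 stood at 52.0 against 31.7 CPM there, a log2 ratio of 0.71 (0.53 to 0.89), and Ccng1 at 195 against 147 CPM, a log2 ratio of 0.41 (0.32 to 0.50). These 3 targets passed 1.25-fold, beside 4.97% of all genes. At matched depth Mdm2 had 0.44, and Ccng1 had 0.16 (0.03 to 0.28), under the fold. In compartment 1, by contrast, Cdkn1a stood at 98.5 against 96.4 CPM, a log2 ratio of 0.03 (-0.03 to 0.09), and -0.06 at matched depth. Mdm2 (log2 ratio 0.42) and Bax (log2 ratio 0.40) passed the fold, beside 8.51% of all genes, and Ccng1 was lower (log2 ratio -0.17, -0.20 to -0.14). With median-of-ratios scaling, which sets the typical gene level between the groups compared, Mdm2 (0.31) and Bax (0.30) stayed under the fold.

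The values of compartment 1 with TBX18 at day 3 varied with the cluster. Cluster 15 held 425 cells, of which 86.1% had a virus UMI, and the largest cluster held 2523 cells, of which 38.8% had one. Bax stood at 216 CPM in cluster 15 and 85.1 CPM in the largest cluster, Mdm2 at 52.3 and 23.1 CPM, Ccng1 at 149 and 397 CPM and Cdkn1a at 106 and 93.9 CPM. Within the largest cluster alone, a comparison added after these values were seen, positive cells had log2 ratios of 0.11 for Cdkn1a, 0.17 for Mdm2, -0.03 for Bax and 0.01 for Ccng1 over negative cells, and 0 of the 4 targets passed the fold. The Bax and Ccng1 ratios of the whole compartment thus turned sign there, to values whose intervals include 0.

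At day 14 with GFP, Cdkn1a in compartment 1 stood at 194 CPM in 931 positive cells and 149 CPM in 1090 negative cells, a log2 ratio of 0.38 (0.31 to 0.46), and 0.33 at matched depth. It was the only target past 1.25-fold, beside 0.795% of all genes. In compartment 2 it stood at 96.3 against 80.6 CPM, a log2 ratio of 0.26 (0.14 to 0.37), under the fold that 0.994% of all genes passed. At matched depth that ratio was 0.09 (-0.07 to 0.25), which includes 0, and in the largest cluster at matched depth it was 0.28. Mdm2 was lower in positive cells of compartment 2, at 56.5 against 63.8 CPM (log2 ratio -0.18, -0.33 to -0.03), and at matched depth that ratio was -0.12 (-0.31 to 0.08), which includes 0. In the largest cluster the Mdm2 ratio was -0.24 (-0.39 to -0.08), and there at matched depth it was -0.35 (-0.55 to -0.15).

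At day 14 with TBX18, the widest ratio of the 10 was that of Cdkn1a in compartment 2. It stood at 205 CPM in 120 positive cells and 90.2 CPM in 6495 negative cells, a log2 ratio of 1.18 (1.04 to 1.32), and 1.23 at matched depth. Mdm2 (76.7 against 61.3 CPM, log2 ratio 0.33) and Ccng1 (274 against 217 CPM, log2 ratio 0.34) passed the fold with it, beside 8.75% of all genes. With median-of-ratios scaling these were 0.26 and 0.27, under the fold. In compartment 1, Cdkn1a stood at 302 CPM in 197 positive and 215 CPM in 1084 negative cells, a log2 ratio of 0.49 (0.39 to 0.59), and was the only target past the fold, beside 8.09% of all genes. At matched depth Cdkn1a had 0.36 there. Bax went from -0.14 (-0.35 to 0.05) to -0.39 (-0.63 to -0.15) at matched depth, and Mdm2 from 0.11 (-0.11 to 0.32) to -0.20 (-0.47 to 0.07). Within the largest clusters at matched depth, the lowest Bax ratio of the 10 combinations was -0.10. With A83-01, Cdkn1a stood at 152 against 89.1 CPM in compartment 1, a log2 ratio of 0.77 (0.67 to 0.87), and at 112 against 70.9 CPM in compartment 2, a log2 ratio of 0.66 (0.46 to 0.86). Mdm2 passed with it in compartment 1 (38.1 against 23.5 CPM, log2 ratio 0.69), beside 8.52% of all genes, and no other target passed in compartment 2, beside 10.3% of all genes.

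Set beside all genes of the same comparison, without matching for depth, the ratio of Cdkn1a lay above 97.4% to 99.8% of genes in 9 of 10 combinations. The exception was compartment 1 with TBX18 at day 3, where it lay above 49.5% of genes. Mdm2 lay above 94.4% of genes or more in 5 of the 10 combinations and above 5.73% to 91.3% in the other 5, lowest in compartment 2 with GFP at day 14. Bax lay above 14.6% to 94.4% of genes and Ccng1 above 16.6% to 98.9%, so their counts of 8 and 9 of 10 include ratios like those of a typical gene. The median ratio of the 4 targets was above that of all genes in 10 of 10 combinations, at 0.03 to 0.59 against -0.00 to 0.10 on the log2 scale. In the largest cluster of each library and compartment, Cdkn1a was higher in positive cells in 10 of 10 combinations (log2 ratios 0.11 to 1.29), also at matched depth (0.06 to 1.43). The lowest of the matched ratios, in compartment 1 with TBX18 at day 3, had an interval that includes 0 (-0.01 to 0.14). Mdm2 was higher in the largest clusters in 9 of 10 and, at matched depth, in 8 of 10. These counts within clusters were not set beside all genes, and neither were the ratios at matched depth.

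**Figure D2:**
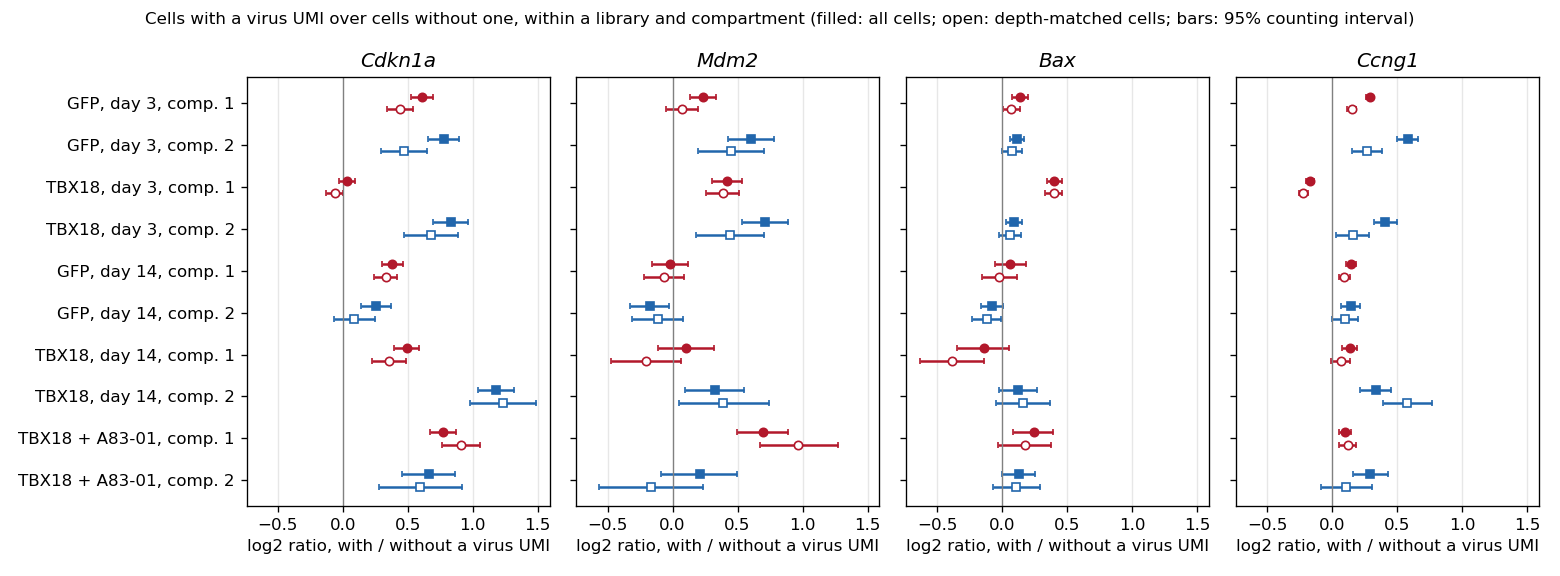
Log2 ratio of each gene in cells with over cells without a virus UMI, in 10 library and compartment combinations, filled symbols for all cells and open symbols for equal numbers of cells within bands of depth, with 95% counting intervals. Cdkn1a lies right of 0 except for the open symbol of compartment 1 with TBX18 at day 3, at -0.06 beside 0.03 for the filled one. The intervals of these symbols include 0, as does that of the open symbol of compartment 2 with GFP at day 14 (0.09).

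The level of Cdkn1a in compartment 1 also moved with the number of virus UMIs in a cell. With GFP at day 3 it stood at 37.7 CPM in cells with 0 virus UMIs, 42.7 CPM with 1, 44.7 CPM with 2 and 72.6 CPM with 3 or more, and reached 122 CPM (113 to 131) in the 205 cells with 10 or more. Bax went from 93.9 to 138 CPM and Ccng1 from 368 to 560.2 CPM between 0 and 10 or more. Mdm2 went from 29.0 to 44.2 CPM. With GFP at day 14, Cdkn1a stood at 149 CPM with 0, 176 with 1, 168 with 2, 213 with 3 or more and 288 CPM (267 to 311) in the 125 cells with 10 or more, while the intervals of Mdm2 at 0 and at 10 or more overlapped (53.5 and 63.2 CPM). These bins also differed in depth. Between 0 and 10 or more, the median went from 19866 to 29872 UMIs at day 3 and from 13917 to 18000 at day 14. Levels by virus UMIs, here and below, were not matched for depth or set beside all genes. The part of depth in them was not tested.

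The TBX18 libraries at day 14 held fewer virus UMIs, and Cdkn1a in compartment 1 moved with them there too. With TBX18 alone it stood at 215 CPM with 0, 269.9 CPM with 1, 286 CPM with 2 and 420.1 CPM (374 to 471) in the 35 cells with 3 or more. With A83-01 it stood at 89.1, 120.3, 176 and 231 CPM (207 to 258) in the same bins. Between 0 and 3 or more, the median depth went from 15411.5 to 19514 UMIs with TBX18 alone and from 19154 to 23126 with A83-01. In compartment 2 with TBX18 alone, Cdkn1a stood at 90.2 CPM with 0, 157 CPM with 1, 249.9 CPM with 2 and 355 CPM (295 to 424) in the 20 cells with 3 or more. In compartment 2 with GFP at day 14 it did not climb in this way, at 80.6, 85.1, 123, 102.3 and 104.2 CPM in cells with 0, 1, 2, at least 3 and at least 5 virus UMIs. Mdm2 there stood at 63.8 CPM with 0 and 42.9 CPM (28.5 to 62.0) in the 35 cells with 5 or more. Mdm2 in compartment 1 with A83-01 went from 23.5 CPM at 0 to 76.9 CPM (63.2 to 92.6) in the 63 cells with 3 or more.

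Compartment 1 with TBX18 at day 3 did not climb either. Cdkn1a stood at 96.4, 88.1, 125, 97.3, 89.1 and 81.2 CPM in cells with 0, 1, 2, at least 3, at least 5 and at least 10 virus UMIs. Bax went from 92.1 to 227 CPM and Mdm2 from 23.6 to 43.2 CPM between 0 and 10 or more, while Ccng1 went down from 384 to 181 CPM. In the same cells, the share of UMIs from 201 genes at least 8-fold higher in compartment 1 than in compartment 2 went from 19.8% at 0 to 10.8% at 10 or more. The like share was also lower in cells with more virus UMIs in the other libraries. It went from 20.1% at 0 to 18.3% at 10 or more with GFP at day 3, and from 16.5% to 15.2% with GFP at day 14. It went from 14.1% at 0 to 11.2% at 3 or more with TBX18 at day 14, and from 18.1% at 0 to 13.5% at 3 or more and 11.5% at 5 or more with A83-01. The share of UMIs from genes at least 8-fold higher in compartment 2 went both ways. It was 0.425% at 0 and 0.505% at 10 or more with TBX18 at day 3, and 0.699% at 0 and 1.02% at 3 or more with A83-01. With GFP it went from 0.427% at 0 to 0.588% at 10 or more at day 3, and from 0.505% to 0.468% at day 14. With TBX18 at day 14 it went from 0.451% at 0 to 0.294% at 3 or more. The part of these shifts in the levels of the 4 targets was not tested.

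**Figure D3:**
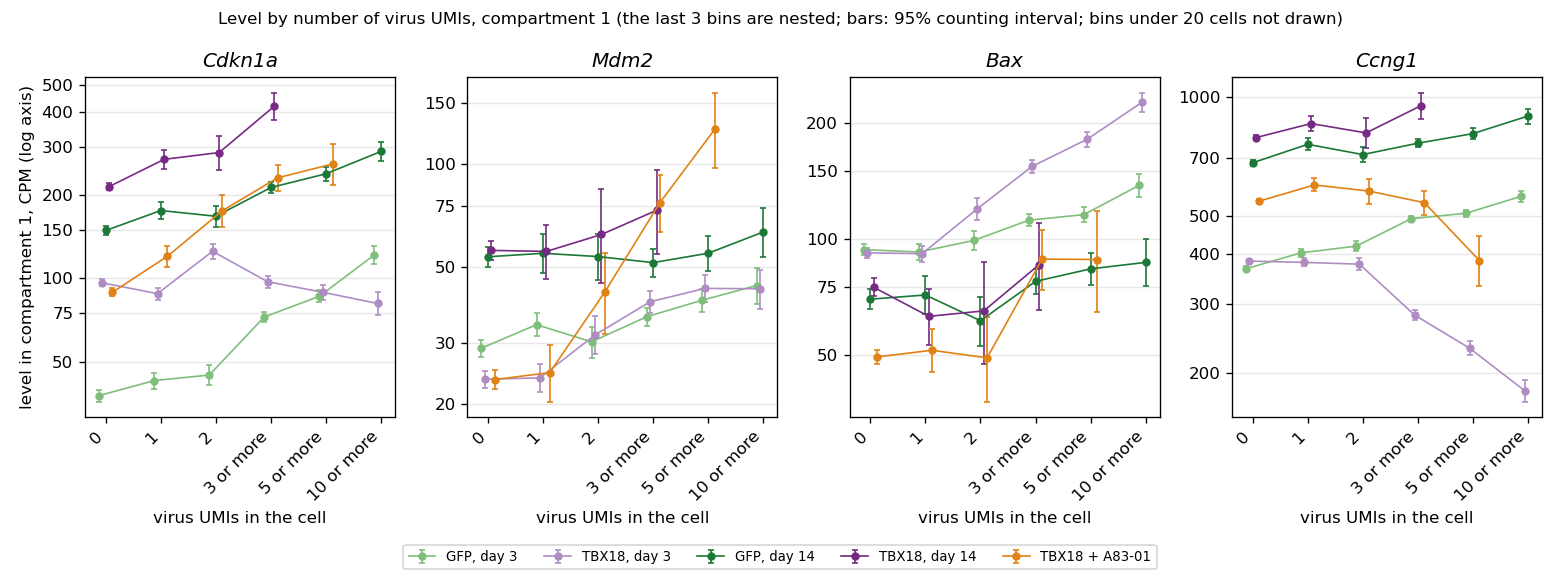
Level of each gene in CPM (log axis) in compartment 1 by the number of virus UMIs in the cell, a line for each library, with 95% counting intervals; the bins of 3, 5 and 10 or more are nested. Cdkn1a climbs from 37.7 to 122 CPM with GFP at day 3 and stays between 81.2 and 125 CPM with TBX18 at day 3, where Ccng1 drops to 181 CPM. The bins are not matched for depth.

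How the transcripts were spread over cells was read after each cell had been thinned to 5000 UMIs, which left out 174, 136, 3, 4 and 0 shallower cells in the order of libraries used above. In compartment 1 with GFP at day 3, 18.2% (16.7 to 19.8) of positive and 12.1% (10.7 to 13.6) of negative cells then had a Cdkn1a UMI. Without thinning the shares were 41.3% and 25.8%. In compartment 2 with TBX18 at day 14 the thinned shares were 46.7% (37.5 to 56.0) and 27.1% (26.0 to 28.2), and the unthinned shares 69.2% and 51.6%. The thinned share of cells with a Cdkn1a UMI was higher among positive cells in 10 of 10 combinations, with intervals apart in 6. For Mdm2 this held in 9 of 10, for Ccng1 in 7 and for Bax in 6, with intervals apart in 3, 2 and 1. Shares of all other genes were not taken in this way. These counts thus have no background beside them and describe the 4 genes only.

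Cdkn1a was the most unevenly spread of the 4 targets in 8 of the 10 combinations, by the variance over cells divided by the mean. In compartment 1 with TBX18 at day 14, 52.97% of thinned cells had 0 Cdkn1a UMIs, 23.2% had 1 and 6.33% had 5 or more, up to 22 in a cell. Its variance was 3.70 times its mean there, against 2.82 for Ccng1, 1.38 for Mdm2 and 1.20 for Bax, where counting alone gives about 1. The exceptions were compartment 1 with TBX18 at day 3, where Bax had 2.28 and Cdkn1a 2.14, and compartment 2 with A83-01, where Ccng1 had 2.24 and Cdkn1a 1.95. This value grows with a gene's mean, so it is no comparison of genes at equal level.

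Cells with a Cdkn1a UMI more often had a UMI of Mdm2, at equal depth. Mdm2 was found in 18.9% (16.0 to 22.0) of the 678 cells with Cdkn1a and in 12.5% (11.4 to 13.6) of the 3710 cells without it, in compartment 1 with GFP at day 3. In compartment 2 with TBX18 at day 3 the shares were 22.1% (18.6 to 25.8) and 11.7% (10.4 to 13.1). The ratio of these shares lay between 1.41 and 1.88 in the 10 combinations, with intervals apart in all 10, and it lay above that of 96.9% to 99.9% of all genes, whose median ratio was 0.982 to 1.06. Within the largest cluster alone the Mdm2 ratio was 1.28 to 2.20, above 95.5% of genes or more. The ratio was also above 1 in 10 of 10 combinations among cells without a virus UMI (1.38 to 1.82).

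Bax and Ccng1 each had the higher ratios in the compartment where their own level was lower. For Bax the ratio was 1.27 to 1.69 in compartment 1, above 96.1% of genes or more, and 1.05 to 1.13 in compartment 2, above 76.7% to 95.1%. For Ccng1 it was 1.21 to 1.51 in compartment 2, above 97.9% of genes or more, and 1.01 to 1.17 in compartment 1, above 36.4% to 88.4%. In compartment 1 the Ccng1 ratio was below the median of all genes with GFP at day 14 (1.03 against 1.06) and with A83-01 (1.01 against 1.05). Intervals were apart in 9 of 10 combinations for Bax and 7 of 10 for Ccng1. A gene already found in most cells, such as Ccng1 in 92.9% of cells with and 88.5% of cells without Cdkn1a in compartment 1 with TBX18 at day 14, cannot give a ratio far above 1. Detection in the same cell does not show that p53 was active in it.

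Clusters with at least 50 cells in a library differed in Cdkn1a, also where virus detection was alike. In compartment 1 at day 14 with GFP, it stood at 341 CPM (325 to 358) in the 337 cells of cluster 9 and at 110.4 CPM (106 to 115) in the 1352 cells of cluster 10, while 46.3% and 45.3% of their cells had a virus UMI. The highest level was 535 CPM (496 to 576) in the 59 cells of cluster 23 with TBX18 at day 14, of which 6.78% had a virus UMI. The lowest was 5.14 CPM (1.67 to 11.999) in the 99 cells of cluster 24 with GFP at day 3, of which 12.1% had one, at a median depth of 8953 UMIs. Clusters were made without the 4 genes, and these levels are a description.

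Ratios between libraries compare compartments whose cells mostly lie in clusters of 1 library. In compartment 1 the largest cluster was cluster 2 with GFP at day 3 (99.9% of its cells from that library), cluster 5 with TBX18 at day 3 (99.3%), cluster 10 with GFP at day 14 (99.3%), cluster 9 with TBX18 at day 14 (73.5%) and cluster 7 with A83-01 (99.9%). In compartment 2 it was cluster 8 (96.3%), 4 (91.2%), 3 (98.4%), 0 (99.8%) and 1 (100%) in the same order. Library and cluster therefore cannot be told apart for most cells.

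TBX18 was compared with GFP at the same day. At day 3, Cdkn1a in compartment 1 was 1.97-fold higher with TBX18 (log2 ratio 0.98, 0.93 to 1.03), and 23.4% of all genes passed 1.5-fold in either direction. It was higher with TBX18 both in cells without a virus UMI (96.4 against 37.7 CPM) and in cells with one (98.5 against 57.4 CPM). Clusters 20 and 21 of compartment 1 held at least 50 cells in both day 3 libraries. In cluster 21, Cdkn1a stood at 175 CPM (160 to 192) with TBX18 and 149 CPM (136 to 163) with GFP. These intervals overlap. In cluster 20 it stood at 104 CPM (75.6 to 140) with TBX18 and 31.6 CPM (17.7 to 52.2) with GFP. Mdm2 (log2 ratio -0.23), Bax (0.09) and Ccng1 (-0.19) stayed within the fold. In compartment 2 none of the 4 targets passed it, with log2 ratios from -0.08 to 0.23, beside 7.69% of all genes. At day 14 the Cdkn1a ratio was 0.42 (0.37 to 0.48) in compartment 1 and 0.17 in compartment 2, and 0 of 4 targets passed in either, beside 13.5% and 9.6% of all genes. Median-of-ratios scaling gave 0.20 and 0.02 for these day 14 ratios of Cdkn1a. Within cluster 9, which both day 14 libraries share, Cdkn1a was lower with TBX18, at 219.9 CPM (213 to 227) against 341 CPM (325 to 358) with GFP. In cluster 14, also shared, it stood at 177 CPM (164 to 191) with TBX18 and 162 CPM (153 to 173) with GFP, and these intervals overlap. In compartment 2, Cdkn1a stood at 76.7 CPM with TBX18 and 98.3 CPM with GFP in the shared cluster 6. The order was the opposite in cluster 19, at 187 CPM with TBX18 and 88.2 CPM with GFP. In clusters 3 and 12 the intervals overlapped.

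The TBX18 culture with A83-01 held less Cdkn1a and Mdm2 than the culture with TBX18 alone. In compartment 1, Cdkn1a had a log2 ratio of -1.22 (-1.28 to -1.16) and Mdm2 of -1.14 (-1.25 to -1.02), and both passed 1.5-fold, as did 33.3% of all genes. The median of all genes was -0.38 there, and median-of-ratios scaling gave -0.70 for Cdkn1a, -0.62 for Mdm2, -0.02 for Bax and -0.02 for Ccng1. Scaled by totals, Bax had a ratio of -0.54 and Ccng1 of -0.54. In compartment 2, Cdkn1a (-0.37) and Mdm2 (-0.39) were lower and Bax was higher (0.55, 0.52 to 0.58), none of them past the fold that 23.6% of all genes passed. With median-of-ratios scaling Bax passed it, at 0.66. In cluster 12 of compartment 2, the only cluster with at least 50 cells in both libraries, the order was the opposite. Cdkn1a stood there at 188 CPM (179.5 to 198) with A83-01 and 146 CPM (136 to 157) with TBX18 alone, and Mdm2 at 95.1 CPM (88.8 to 102) and 61.3 CPM (54.6 to 68.6). The 2 cultures may also differ in exposure time, and the ratio shares its TBX18 library with the comparison of TBX18 and GFP at day 14.

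With either virus, day 14 was also set against day 3, although the deposited tables of these days have unlike units and cell filters. Cdkn1a in compartment 1 was higher at day 14 by a log2 ratio of 1.79 (1.74 to 1.85) with GFP and 1.24 (1.19 to 1.29) with TBX18, and in compartment 2 by 0.55 and 0.80. Mdm2 was higher by 0.73 and 1.05 in compartment 1 and by 1.11 and 0.90 in compartment 2. Bax was lower in all 4 comparisons, with log2 ratios of -0.48 and -0.52 in compartment 1 and -1.10 and -1.19 in compartment 2. Ccng1 was higher by 0.78 and 1.14 in compartment 1 and by 0.77 and 0.54 in compartment 2. Past 1.5-fold were 3 targets in each of these comparisons, namely Cdkn1a, Mdm2 and Ccng1 in compartment 1 with both viruses, Mdm2, Bax and Ccng1 in compartment 2 with GFP, and Cdkn1a, Mdm2 and Bax there with TBX18. The shares of all genes past it were 40.7% and 54.8% in compartments 1 and 2 with GFP, and 44.1% and 58.1% with TBX18. Median-of-ratios scaling lowered these ratios by 0.31 to 0.57, turned Ccng1 in compartment 2 with TBX18 to -0.03 and left the sign of the others. With it, calls past the fold ended for Mdm2 (0.36) and Ccng1 (0.41) in compartment 1 with GFP, Mdm2 (0.51) in compartment 1 with TBX18, Ccng1 (0.46) in compartment 2 with GFP, and Cdkn1a (0.23) and Mdm2 (0.32) in compartment 2 with TBX18. Bax in compartment 1 came to lie past it with GFP (-0.85) and with TBX18 (-1.06). No cluster held at least 50 cells in a library of each day.

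**Figure D4:**
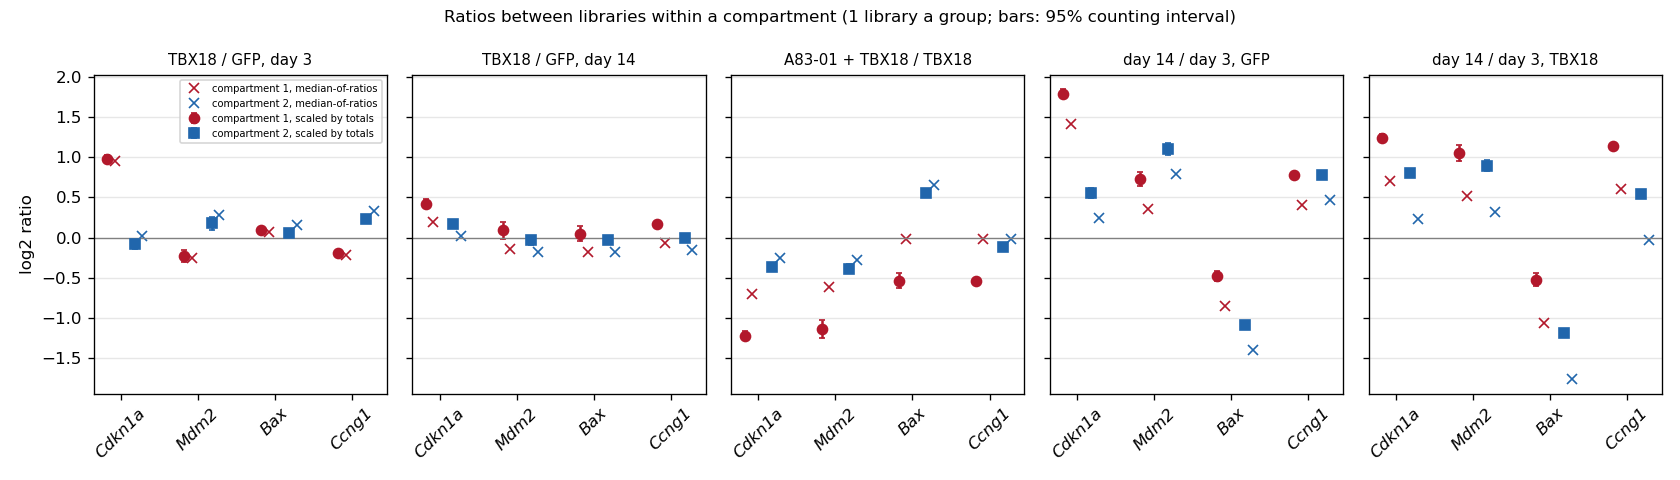
Log2 ratios between libraries within a compartment, circles and squares with 95% counting intervals for scaling by totals and crosses for median-of-ratios scaling. Cdkn1a in compartment 1 lies at 0.98 for TBX18 over GFP at day 3 and at -1.22 for A83-01 over TBX18, and Bax lies below 0 for day 14 over day 3 in both compartments.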

How the data were processed

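Rat ventricular cultures were profiled by 10x 3′ single-cell RNA-seq, 1 library per group. The submitters' processing notes name STAR 2.7.8a, Partek and the build Rnor_6.0, without saying which step used which. The day 3 tables hold estimated counts of UMIs per cell and gene as deposited, nearly all whole (99.7% of values within 0.05 of a whole number with GFP). The day 14 tables hold log2(CPM + 1) values as deposited, in cells with 1993 to 5592 genes. UMIs were recovered from them by undoing the log and dividing by each cell's most common nonzero value, taken as 1 UMI. All values of the 4 genes came out whole. The design had expected 1 unit for all tables.

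Barcodes with at least 500 genes were kept, and cells above the mark of the top 6% of doublet scores in each library left out (360 to 481 cells, under 6% where scores tied at the mark), since automatic calls were too few. Cells were clustered with scanpy 1.11.5 (2000 variable genes, 30 components, leiden resolution 1) without the virus features and the 4 genes. UMIs were summed over cells, and ratios are of sums over totals with exact 95% intervals. Shares of all genes past a fold used a pseudocount of 0.5 CPM and left out genes whose mean was under 20 CPM. The text names the 4 genes, the virus features and at most 2 IDs of like pattern. Marker and p53 pathway lists were not applied, because 0 of 17060 IDs matched a symbol. The genes and lists were chosen with earlier results of these data known, and the doublet rule, the compartments and the comparisons within the largest cluster were chosen after seeing the data. Scripts were tested on simulated data.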

Additional observations from a re-analysis of the deposited data

Results flagged for a closer look

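Each pair below shows the same contrast with opposite signs, both intervals excluding 0. All values are log2 ratios, none of these differences was tested, and each rests on single libraries.

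Cdkn1a, the p21 gene, was higher with TBX18 than with GFP at day 3 in compartment 1 (0.98) and lower in compartment 2 (-0.077). The compartment 2 ratio was 0.17 at day 14, and median-of-ratios scaling put both compartment 2 ratios at 0.02.

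Mdm2 was higher in virus-positive cells of compartment 2 with GFP at day 3 (0.61) and lower with GFP at day 14 (-0.18). At matched depth the day 14 ratio was -0.12 (-0.31 to 0.08), which includes 0, and in the largest cluster at matched depth it was -0.35 (-0.55 to -0.15). With TBX18 at day 14 the same ratio was 0.33. For TBX18 over GFP at day 3, Mdm2 had -0.23 in compartment 1 and 0.18 in compartment 2.

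Bax for TBX18 over GFP in compartment 2 had 0.061 at day 3 and -0.037 at day 14. For A83-01 over TBX18 alone it had -0.54 in compartment 1 and 0.55 in compartment 2. With median-of-ratios scaling the first of these was -0.02 and the second 0.66.

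Ccng1 in virus-positive cells of compartment 1 had 0.29 with GFP at day 3, -0.17 with TBX18 at day 3 and 0.13 with TBX18 at day 14. In compartment 2 with TBX18 at day 3 it had 0.41. For TBX18 over GFP it had -0.19 in compartment 1 and 0.23 in compartment 2 at day 3. In compartment 1 at day 14 it had 0.16, which was -0.07 with median-of-ratios scaling.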

How the results depend on the processing

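Of 664 log2 ratios of the 4 genes recomputed under other settings, 37 turned sign, of which 15 had an interval that included 0 as reported and 22 had one that did not. Of 166 counts of genes past the fold, 144 stayed within 1.5 times. The share of all genes past the fold was not taken under the settings of these counts. The counts given below thus have no background beside them and describe the 4 genes only. Except where stated, the cause was not tested. Clustering at resolution 0.5 moved none of 80 ratios beyond its interval.

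Joining the compartments put Cdkn1a in virus-positive over other cells at 0.37 and 0.53 at day 3 with GFP and TBX18, and at 0.77, 1.30 and 0.90 at day 14 with GFP, TBX18 and A83-01. Bax turned to -1.001 and -0.85 at day 3 and to -0.83 with A83-01, and Ccng1 turned to 0.46 with TBX18 at day 3. The counts past the fold that moved were all 2. Between libraries, joining turned TBX18 over GFP at day 3 in compartment 2 to 0.53 (Cdkn1a), -0.035 (Mdm2) and -0.17 (Ccng1), with 0 genes past the fold against 1 in compartment 1. It turned TBX18 over GFP at day 14 to -0.29 for Ccng1 and 0.14 for Bax, and A83-01 over TBX18 to 0.18 for Bax and 0.078 for Ccng1, with 1 gene past the fold.

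At matched depth, Cdkn1a had 0.44 and 0.47 with GFP at day 3, -0.061 and 0.68 with TBX18 at day 3, 0.089 in compartment 2 with GFP at day 14, 0.36 in compartment 1 with TBX18 at day 14 and 0.91 in compartment 1 with A83-01.

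With at least 2 virus UMIs, Cdkn1a had 0.78 and 1.08 with GFP at day 3, 0.14 and 1.57 with TBX18 at day 3, 0.46 in compartment 2 with GFP at day 14, 0.72 and 1.73 with TBX18 at day 14 and 1.20 in compartment 1 with A83-01. Counts became 2 in compartment 1 with GFP at day 3 and compartment 2 with A83-01, and 1 in compartment 2 with GFP at day 14. With hTBX18 alone, Cdkn1a had 1.03 in compartment 2 with TBX18 at day 3, and 3 genes passed in compartment 2 with A83-01.

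In the largest cluster, Cdkn1a in compartment 1 had 0.11 with TBX18 at day 3, 0.70 with GFP at day 14, 0.60 with TBX18 at day 14 and 0.56 with A83-01, and in compartment 2 with A83-01 it had 1.12. Bax (-0.031) and Ccng1 (0.0099) turned with TBX18 at day 3, where 0 genes passed, while 1 passed in compartment 2 with GFP at day 14 and 3 with A83-01. At matched depth as well, Cdkn1a had 0.51 with GFP at day 3, 0.62 with GFP at day 14 and 0.39 with A83-01 in compartment 1, and 1.43 in compartment 2 with TBX18 at day 14. Bax with TBX18 at day 3 then had -0.072, with 0 genes past the fold, and 3 passed in compartment 2 with A83-01.

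Median-of-ratios scaling gave virus-positive Cdkn1a -0.072 in compartment 1 with TBX18 at day 3, with 0 genes past the fold, and 0.65 with A83-01, where Ccng1 turned to -0.023. It left 1 gene past the fold in compartment 2 with TBX18 at day 14. Between libraries it turned Cdkn1a for TBX18 over GFP in compartment 2 at day 3 to 0.021, Ccng1 in compartment 1 at day 14 to -0.065 and Ccng1 for day 14 over day 3 with TBX18 in compartment 2 to -0.032, and gave 1 gene past the fold in that last comparison and for A83-01 in compartment 2.

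Without the minimum of 500 genes, Cdkn1a had 0.77 in compartment 1 with GFP at day 3, with 3 genes past the fold, and 0.12 with TBX18. With all libraries limited to the genes and UMIs per cell of the day 14 tables, it had 0.54 in compartment 2 with GFP at day 3, where Bax had -0.00049, and 0.18 and 0.59 with TBX18 at day 3. With high doublet scores kept, it had 0.10 in compartment 1 with TBX18 at day 3.

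No paired analysis was possible because each group has 1 library. The share of all genes past the fold moved by over 1.5 times in 11 of 40 recomputations with another low-level filter or pseudocount. Free RNA was not measured, depth falls from day 3 to day 14, and virus detection depends on a cell's depth.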
